A study of Mus musculus with 14 samples.

Results

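Cytosolic ribosomal protein genes encode the proteins that, with ribosomal RNA, make up the small and the large subunit of the ribosome. They were taken from the count table by gene symbol: Rps or Rpl followed by a number and an optional paralog letter, the stalk genes Rplp0, Rplp1 and Rplp2, and Rpsa. The rule found 83 of 22430 genes, 32 of the small and 51 of the large subunit. Of these, 81 passed the filter on low counts (32 small, 49 large), among 14269 genes tested in all. Rpl10l had 0 counts in every library and Rpl3l had 0 to 10, so neither was tested.

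The libraries came from the intima of the thoracic aorta, the inner layer of the wall with its endothelium, lysed through the lumen. Each of the 14 libraries held polyadenylated RNA pooled from 12 to 14 mice. All mice lacked apolipoprotein E (Apoe-/-). The labels give no ages. In ubiquitous progerin (3 pools) both Lmna copies carried G609G (Lmna G609G/G609G), which makes cells produce progerin, a shortened lamin A known from Hutchinson-Gilford progeria syndrome. Its control was Apoe-/- Lmna+/+ (wild-type control, 4 pools). In VSMC progerin (3 pools; VSMC, vascular smooth muscle cell) Lmna LCS/LCS mice carried SM22Cre. The SM22α promoter drives the recombinase in smooth muscle, and progerin is then made there from the LCS allele. Its control was Lmna LCS/LCS without Cre, which makes lamin C only (lamin C-only control, 4 pools). VSMC progerin mice differ from wild-type control in the LCS allele as well.

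Ribosomal proteins are needed in balanced amounts, and most of their mRNAs begin with a run of pyrimidines, the terminal oligopyrimidine (TOP) tract. TOP mRNAs also encode elongation factors, and their translation is controlled by the kinase complex mTORC1 through the binding protein LARP1. Some ribosomal proteins have additional roles, and a few have paralogs that replace them in some tissues.

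The tracts are shown because they are a sequence feature that the choice by symbol did not use. RefSeq starts (GRCm38.p6) were matched for 63 of the 83 genes. A tract, here a C followed by at least 7 further C or T on the sense strand within 50 bases either side of an annotated start, was found for 52 of 63 (82.5%). It was found for 8645 of 27025 genes with a promoter entry (32.0%). Genes with several annotated starts had more chances to match, and an absent match says only that these letters are not in this window. A match can lie away from the start, so it need not be the TOP tract at the mRNA's first bases. Counted from the annotated start, the first tract base was at 2 in Rpl13a, 26 in Rpl4, 39 in Rpl12 and 40 in Rpl41. In Rps27l and Rps19 it was upstream of the start, at -22 and -43. The 30-base windows of 6 genes with a tract follow, with the tract in capitals: Rpl13a (chr7:45128722-45128751, minus strand), Rps19 (chr7:24884623-24884652, plus), Rpl12 (chr2:32961732-32961761, plus), Rpl4 (chr9:64173405-64173434, plus), Rps27l (chr9:66946053-66946082, plus) and Rpl41 (chr10:128549119-128549148, minus).
Rpl13a: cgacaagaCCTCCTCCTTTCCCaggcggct
Rps19: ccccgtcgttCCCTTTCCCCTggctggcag
Rpl12: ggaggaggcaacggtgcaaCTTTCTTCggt
Rpl4: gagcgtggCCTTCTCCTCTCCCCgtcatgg
Rps27l: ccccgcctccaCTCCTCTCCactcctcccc
Rpl41: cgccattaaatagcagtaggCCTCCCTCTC

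Rps3 (chr7:99483695-99483724, minus strand), Rpsa (chr9:120127751-120127780, plus), Rplp0 (chr5:115559452-115559481, plus) and Rpl7l1 (chr17:46782642-46782671, minus), which stand out in the results below by size or direction, had no such tract near the RefSeq start. These genes were picked by those results. Rpl12, Rps19, Rps27l and Rpl41, shown above with a tract, stand out as well. Rps4x and Rps3a1, which are named in the results below, had no tract either, nor did the untested Rpl10l. Rpl23, Rpl24, Rps13 and Rps28 also had no tract and are not named in the results below.
Rps3: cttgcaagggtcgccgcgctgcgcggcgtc
Rpsa: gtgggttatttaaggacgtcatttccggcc
Rplp0: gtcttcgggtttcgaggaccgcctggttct
Rpl7l1: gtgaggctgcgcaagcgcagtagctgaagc
Other short motifs, searched on both strands of the 300-base promoters, where the reverse complement of the first can overlap a tract, were GGAAGT (47.6% of the 63 genes, 26.5% of all genes), AAGATGGC (9.52% and 3.19%) and GGGCGG (61.9% and 38.2%).

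All 83 genes were annotated as protein coding and lay on 19 chromosomes, 14 of them on chromosome 7. Library totals were 27169784 to 35692385 estimated counts. Wild-type control pool 1 had counts for 14331 genes, against 15195 to 15247 in the other wild-type pools. Mitochondrially encoded genes took 7.29% to 8.22% of the counts in ubiquitous progerin against 4.60% to 5.42% in wild-type control, and 11.5% to 12.1% in VSMC progerin against 3.53% to 4.61% in lamin C-only control. The intima label was checked against endothelial markers: 8 genes summed to 19034 to 23478 CPM (counts per library total, the total scaled by TMM, the trimmed mean of M-values) over all libraries.

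Ribosomal protein genes together took more of the library in ubiquitous progerin and less in VSMC progerin. Their share of all counts was 6.45%, 6.47% and 6.23% in the ubiquitous progerin pools, against 4.85%, 4.89%, 4.95% and 4.76% in the wild-type control pools. It was 3.73%, 4.27% and 4.11% in the VSMC progerin pools, against 4.63%, 4.96%, 4.56% and 4.97% in the lamin C-only control pools. Neither pair of groups overlapped. With mitochondrially encoded genes left out of the total, the VSMC progerin shares were 4.22%, 4.82% and 4.68% and the lamin C-only shares were 4.83%, 5.14%, 4.74% and 5.21%, so that this pair overlapped. In bulk RNA, fewer cells of a type and less RNA per cell cannot be told apart.

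**Figure D1:**
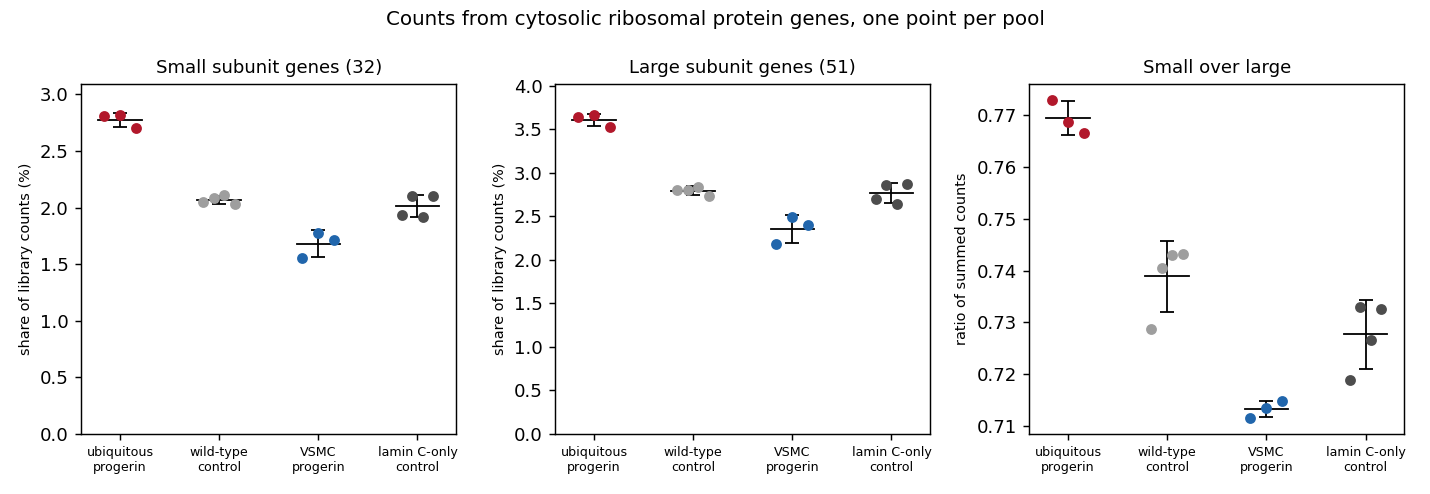
Share of library counts from small subunit genes and from large subunit genes (%), and the ratio of their summed counts (axis not from 0), for each pool in the 4 groups; lines are means and bars are SD. The ubiquitous progerin pools have the highest values in all panels and the VSMC progerin pools the lowest.

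Small subunit genes took a larger part of these counts in ubiquitous progerin and a smaller one in VSMC progerin. The ratio of small to large subunit counts was 0.767 to 0.773 in ubiquitous progerin against 0.729 to 0.743 in wild-type control. It was 0.712 to 0.715 in VSMC progerin against 0.719 to 0.733 in lamin C-only control. Without Rps3, the small subunit gene with the largest rise in ubiquitous progerin, the ratio was 0.707 to 0.713 in ubiquitous progerin against 0.691 to 0.698 in wild-type control. It was then 0.669 to 0.671 in VSMC progerin against 0.677 to 0.686 in lamin C-only control. The ranges of each pair stayed apart. With Rps3 counted, the ranges of the control groups overlapped each other. Without Rps3 the control groups were apart too, with lamin C-only control below wild-type control. The means were then 0.710 in ubiquitous progerin and 0.696 in wild-type control, and 0.670 in VSMC progerin and 0.682 in lamin C-only control. A gap of this size therefore also stood between groups without progerin.

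With progerin in every cell, these genes were nearly all higher than in wild-type control. Of 81 genes, 74 rose and 1, Rpl7l1, fell, at an adjusted p under 0.05 (edgeR quasi-likelihood, Benjamini-Hochberg over all 14269 genes). Over all genes tested, 54.6% were called, 26.3% higher and 28.3% lower. The small subunit had 30 of 32 higher, with a median log2 fold change of 0.39. The large subunit had 44 of 49 higher and 1 lower, with a median of 0.38. Over both subunits the median was 0.38, a 1.30-fold level, against -0.0050 for all genes tested. The size was narrowly spread: 67 of 81 genes lay within 0.2 of the median, against 4063 of 14269 genes around theirs. This was not particular to ubiquitous progerin. Around their own medians it held for 76 of 81 in VSMC progerin (5636 of all genes) and 79 between the control groups (10664 of all genes). All ubiquitous progerin pools lay above all wild-type pools for 74 genes and below them for 1. How many of all genes tested had pools apart in this way was not counted.

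**Figure D2:**
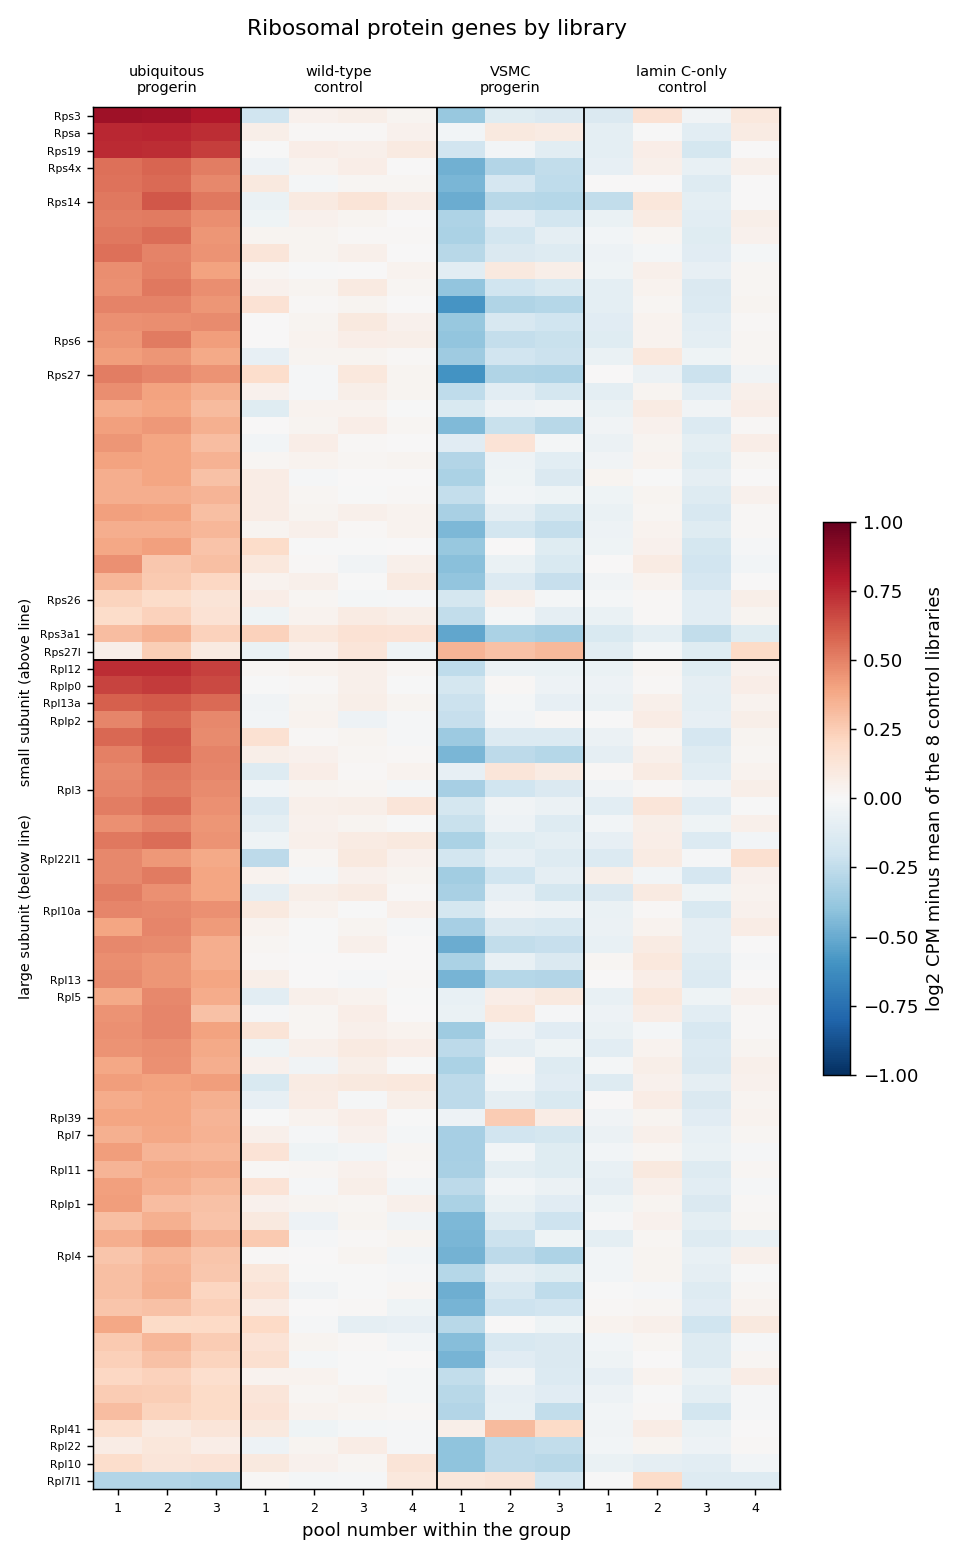
log2 CPM (0.5 added) of each tested gene in each pool minus its mean over the 8 control pools, small subunit above the line and large subunit below; Rpl39l, at 0.219 to 1.49 CPM, is not drawn, and only some genes are named at the side. Nearly all genes are red in the 3 ubiquitous progerin pools, and VSMC progerin pool 1 is bluer than pools 2 and 3.

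Rps3, a small subunit protein at the mRNA entry channel that also acts in DNA repair (ENSMUSG00000030744, chr7:99477896-99483738), rose the most. It had 2183, 2180 and 2119 CPM in ubiquitous progerin, against 1057, 1254, 1264 and 1237 CPM in wild-type control. The groups were far apart, and wild-type pool 1 was the lowest. The log2 fold change was 0.84 ± 0.08 (SE; edgeR adjusted p = 1.58e-08), and 0.79 without that pool (edgeR adjusted p = 5.74e-08).

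Rpsa, a small subunit protein also known as the laminin receptor precursor (ENSMUSG00000032518, chr9:120127689-120132369), had 1098, 1104 and 1084 CPM in ubiquitous progerin, against 678, 655, 656 and 669 CPM in wild-type control. The pools of each group were close together. The log2 fold change was 0.72 ± 0.05 (SE; edgeR adjusted p = 1.3e-09). Rpl12, which forms the base of the stalk on the large subunit (ENSMUSG00000038900, chr2:32961559-32965345), had 856, 856 and 823 CPM in ubiquitous progerin, against 521, 525, 532 and 520 CPM in wild-type control. Its log2 fold change was 0.69 ± 0.06 (SE; edgeR adjusted p = 4.34e-09), and the groups did not overlap.

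Rplp0, the core of the stalk that recruits elongation factors (ENSMUSG00000067274, chr5:115559467-115563727), rose by 0.67 ± 0.05 on the log2 scale. Its partners in the stalk rose less, Rplp2 by 0.53 ± 0.06 and Rplp1 by 0.31 ± 0.06. Rps19, a small subunit assembly protein mutated in Diamond-Blackfan anemia in humans, rose by 0.67 ± 0.06. Rpl13a, which in human monocytes also joins a complex that silences inflammatory mRNAs, rose by 0.57 ± 0.06. Rpl5 and Rpl11, which bind the 5S RNA and can hold the p53 regulator MDM2, rose by 0.42 ± 0.06 and 0.34 ± 0.06. Rps6, a target of the S6 kinases, rose by 0.42 ± 0.06.

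A few genes stayed apart from the rest. Rpl7l1, a paralog of Rpl7 that acts in ribosome assembly (ENSMUSG00000063888, chr17:46773907-46782672), had 57.8, 57.8 and 57.3 CPM in ubiquitous progerin, against 71.3, 70.0, 70.2 and 76.3 CPM in wild-type control. All ubiquitous progerin pools were lower, with a log2 fold change of -0.32 ± 0.08 (SE; edgeR adjusted p = 0.0024). Rpl7 itself rose by 0.35 ± 0.05. The 6 genes that were not called were Rps3a1, Rps27l, Rpl10, Rpl22, Rpl41 and Rpl39l. Rpl22 had a log2 fold change of 0.07 ± 0.05, while its paralog Rpl22l1 rose by 0.45 ± 0.08. Rpl10, which completes the large subunit late in assembly, had 0.07 ± 0.05.

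**Figure D3:**
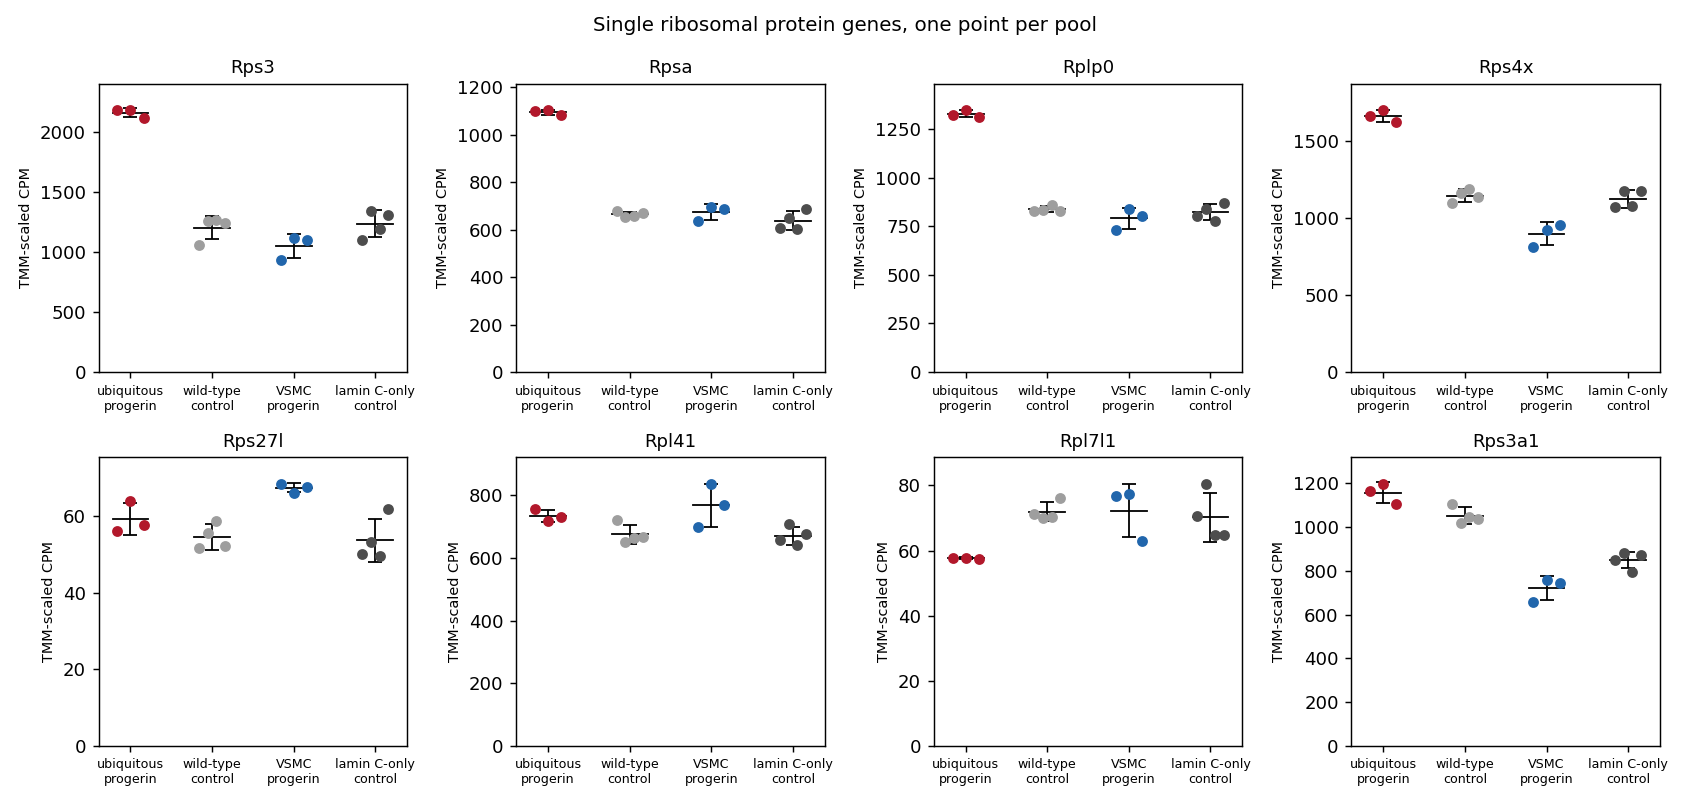
TMM-scaled CPM of 8 genes in each pool of the 4 groups; lines are means and bars are SD, and axes start at 0. Rps3, Rpsa, Rplp0 and Rps4x are highest in ubiquitous progerin, Rps27l is highest in VSMC progerin, Rpl7l1 is lowest in ubiquitous progerin, and Rps3a1 is lower in both LCS groups.

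With progerin in smooth muscle, 71 of 81 genes had a log2 fold change below 0 against lamin C-only control, though fewer passed the test. Over all genes tested 7588 of 14269 were below 0. Lamin C-only control against wild-type control, without progerin, had 71 of 81 below 0 as well. This count is therefore not particular to VSMC progerin. Of 81 genes, 37 fell and 2 rose, Rps27l and Rpl41. Over all genes tested, 42.0% were called by the same edgeR test, 19.0% higher and 23.0% lower. The small subunit had 17 of 32 lower and 1 higher (median log2 fold change -0.17), and the large subunit 20 of 49 lower and 1 higher (median -0.14). The median of the 81 genes was -0.15, against -0.03 over all genes tested. CPM ranges lay below for 30 genes and above for 1, and overlapped for 50. The share of all genes tested with ranges apart was not counted, so these numbers describe the 81 genes only. The size rested in part on 1 library: without VSMC progerin pool 1, 18 genes were lower, with a median of -0.07. Those 18 genes were 22.2% of the 81, close to the 17.7% of all genes tested that were lower without that pool. Without pool 2, 47 genes were lower (58%, against 20.0% of all genes). Fitted on both groups alone 21 were lower (25.9%, against 19.3%). With library totals in place of TMM 65 were lower (80.2%, against 31.1%), and with DESeq2 size factors 28 (34.6%, against 19.9%). Scaling without mitochondrially encoded genes gave 28 lower (34.6%, against 20.1%), and scaling without the ribosomal protein genes 29 (35.8%, against 20.6%). Under TMM and each of these scalings the median of the 81 genes minus that of all genes was -0.12.

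Rpl4, a large subunit protein lining the exit tunnel, had 842, 976 and 945 CPM in VSMC progerin, against 1150, 1195, 1110 and 1215 CPM in lamin C-only control. The groups did not overlap and pool 1 was the lowest. The log2 fold change was -0.34 ± 0.06 (SE; edgeR adjusted p = 5.12e-05). Rps4x, the X-linked form of a small subunit protein (chrX:102184941-102189394), fell by 0.32 ± 0.06 and Rps27 by 0.32 ± 0.07 on the log2 scale. Counts of both were divided by the authors' counting with other genes in nearly all libraries, which makes their levels less certain.

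Rps27l, a paralog of Rps27 that is induced by p53 in human cells (ENSMUSG00000036781, chr9:66946086-66949516), ran the other way. It had 68.4, 66.0 and 67.6 CPM in VSMC progerin, against 49.9, 53.2, 49.4 and 61.8 CPM in lamin C-only control. No VSMC progerin pool overlapped the controls. The log2 fold change was 0.33 ± 0.08 (SE; edgeR adjusted p = 0.00165). Rpl41, which encodes a very short, basic protein (ENSMUSG00000093674, chr10:128548114-128549305), had 700, 838 and 769 CPM in VSMC progerin, against 656, 710, 642 and 676 CPM in lamin C-only control. These ranges overlapped through VSMC progerin pool 1. The log2 fold change was 0.20 ± 0.06 (SE; edgeR adjusted p = 0.0136). The call was lost without VSMC progerin pool 2 and with library totals in place of TMM.

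The LCS allele without progerin left these genes close to wild-type control. In lamin C-only control 0 genes rose and 1, Rps3a1, fell by the edgeR test, where 0.175% of all genes tested were called, 0.0911% higher and 0.0841% lower. DESeq2 and limma-voom also gave 0 higher and 1 lower. At an unadjusted p under 0.05 edgeR gave 3 genes, Rps3a1, Rps27 and Rpl10, all lower. The median log2 fold change of the 81 genes was -0.04, and 71 were below 0, against 7139 of 14269 genes tested. These genes moved together by library. Relative to the mean of the 8 control pools, 70 were above 0 in lamin C-only pool 2 and 1 in pool 3. Rps3a1, a small subunit protein near the mRNA exit (ENSMUSG00000028081, chr3:86137940-86142702), had 848, 881, 796 and 870 CPM in lamin C-only control, against 1107, 1019, 1045 and 1037 CPM in wild-type control. The groups did not overlap, and the log2 fold change was -0.31 ± 0.05 (SE; edgeR adjusted p = 0.0172). The call was lost without lamin C-only pool 1 or 3, or without wild-type pool 1 or 3. Rps3a1 lies 2.34 Mb, and Rps27 1.70 Mb, from Lmna itself on chromosome 3. Whether that position bears on the level was not tested. Against lamin C-only control, Rps3a1 was lower again in VSMC progerin, at 659, 756 and 747 CPM, a log2 fold change of -0.24 ± 0.06 (SE; edgeR adjusted p = 0.00306).

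Both progerin effects have their own controls, so their difference was tested directly. The effect of ubiquitous progerin was above that of VSMC progerin for 76 of 81 genes and below it for 1, Rpl7l1. Over all genes tested, 44.2% were called by the same edgeR test, 22.4% higher and 21.8% lower. The median difference was 0.53 on the log2 scale. Rps3 had the largest called difference, 1.08 ± 0.11 (SE; edgeR adjusted p = 1.36e-07), followed by Rps4x at 0.86 ± 0.09 (edgeR adjusted p = 9.26e-08). The 4 genes not called were Rpl39l, Rpl41, Rps26 and Rps27l. Rps27l rose in VSMC progerin, but its difference of -0.21 ± 0.11 did not pass (edgeR adjusted p = 0.124).

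The calls of both comparisons were also set side by side. Higher in ubiquitous progerin and lower in VSMC progerin were 34 genes, 45.9% of the 74 higher and 91.9% of the 37 lower. Among all 81 genes 45.7% were lower in VSMC progerin and 91.4% higher in ubiquitous progerin. The overlap is thus about what the separate calls give, and shows no link gene by gene. Over all genes tested that held for 910 genes, 24.3% of the 3746 higher and 27.7% of the 3283 lower. By edgeR 0 of the 81 genes were higher in both, against 1126 of all genes tested. Only 2 of the 81 were higher in VSMC progerin, so few could be higher in both. Across the 81 genes, the size of one change did not follow the other (Pearson r = 0.036, Spearman rho = 0.015, across genes, which are not independent replicates).

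**Figure D4:**
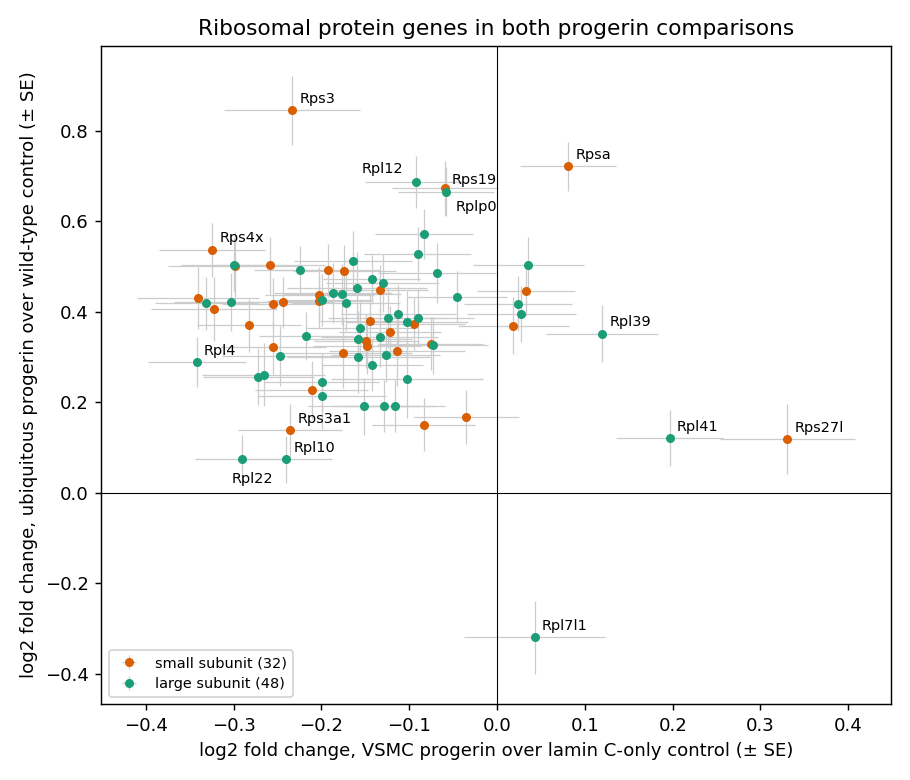
log2 fold change (± SE) of each gene in VSMC progerin over lamin C-only control (x) and in ubiquitous progerin over wild-type control (y), by subunit; Rpl39l is not drawn. Most points lie at the upper left, with Rps3 at the top, Rpl7l1 at the bottom, and Rps27l and Rpl41 at the right.

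Levels between genes were compared per kilobase of the principal transcript, 271 to 3706 bases long. The median over the tested genes was 1058 CPM per kb in ubiquitous progerin, 784 in wild-type control, 662 in VSMC progerin and 770 in lamin C-only control. Rps27 led at 2884 CPM per kb in ubiquitous progerin and 2178 in wild-type control, followed in both by Rps14 and Rplp1. In VSMC progerin Rpl41 led at 1759, above Rps27 at 1568. In lamin C-only control Rps27 led at 1960, and Rpl41 was in place 4. Among the tested genes, the paralogs Rpl39l and Rpl7l1 were the lowest in all 4 groups. Rps27l came next above them, except in VSMC progerin, where Rps20 (133 CPM per kb) was just below Rps27l (135 CPM per kb).

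Grouped by length and by tract, the medians kept the same sign. Genes with transcripts under 1 kb had a median log2 fold change of 0.37 in ubiquitous progerin, and longer ones 0.43, while the other tested genes under 1 kb had 0.04. In VSMC progerin short ribosomal protein genes had -0.16, and the other 1081 short genes 0.13. With a tract, 46 of 51 tested genes rose in ubiquitous progerin, and without one 8 of 10 rose and 1 fell. In VSMC progerin 23 of 51 genes with a tract and 4 of 10 without one fell. Of the 81 genes, 54 had counts deposited as exact whole numbers in all libraries, and 48 of these rose in ubiquitous progerin and 27 fell in VSMC progerin.

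The 4 ribosomal proteins outside the symbol rule that were examined all rose in ubiquitous progerin, among them Fau by 0.41 ± 0.06 on the log2 scale. In VSMC progerin 1 of these fell, Fau, by 0.18 ± 0.06. Elongation factors and other TOP mRNA genes had 11 of 20 higher (55%, against 26.3% of all genes) and 3 lower (15%, against 28.3%) in ubiquitous progerin, with Tpt1 (translationally controlled tumor protein) up by 0.58 ± 0.06. In VSMC progerin 16 of the 20 fell (80%, against 23.0% of all genes), with Eif4b, a helicase cofactor, at -0.62 ± 0.06 and Eif3e, a subunit of an initiation complex, at -0.46 ± 0.05. Eif3e rose by 0.38 ± 0.05 in ubiquitous progerin.

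Other parts of the pathway did not run in 1 direction. Their counts stand beside the shares of all genes tested, 26.3% higher and 28.3% lower in ubiquitous progerin and 19.0% higher and 23.0% lower in VSMC progerin. Initiation factors had 9 of 23 higher (39.1%) and 3 lower (13%) in ubiquitous progerin, and 5 higher (21.7%) and 10 lower (43.5%) in VSMC progerin. Eif5, which triggers start codon recognition, had 0.55 ± 0.06 in ubiquitous progerin, and Eif2s3x, a subunit of the initiator tRNA carrier, had -0.50 ± 0.07 in VSMC progerin. Ribosome biogenesis genes had 9 of 36 higher (25%) and 14 lower (38.9%) in ubiquitous progerin. In VSMC progerin 7 were higher (19.4%) and 8 lower (22.2%), close to the shares over all genes. Bop1 and Bysl, which act in assembly of the large and small subunits, fell by 0.80 ± 0.09 and 1.59 ± 0.19 in ubiquitous progerin and rose by 0.39 ± 0.09 and 0.87 ± 0.17 in VSMC progerin. RNA polymerase I genes had 2 of 13 higher and 4 lower in ubiquitous progerin, and 1 higher and 4 lower in VSMC progerin; 4 of 13 is 30.8%, near the shares of all genes called lower.

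Among 25 genes of TOP mRNA and mTORC1 control, 10 were higher (40%) and 7 lower (28%, near the 28.3% of all genes) in ubiquitous progerin. In VSMC progerin 0 were higher and 10 were lower (40%, against 23.0% of all genes). Sesn1, a sestrin that restrains mTORC1, averaged 264 CPM in ubiquitous progerin against 67.4 in wild-type control, a log2 fold change of 1.97 ± 0.08. It averaged 33.4 CPM in VSMC progerin against 64.6 in lamin C-only control, or -0.95 ± 0.08. Deptor, an inhibitor within the mTOR complexes, rose by 1.96 ± 0.13 in ubiquitous progerin and Mlst8, a subunit of those complexes, fell by 1.90 ± 0.14. No gene of these lists was called between lamin C-only control and wild-type control.

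**Figure D5:**
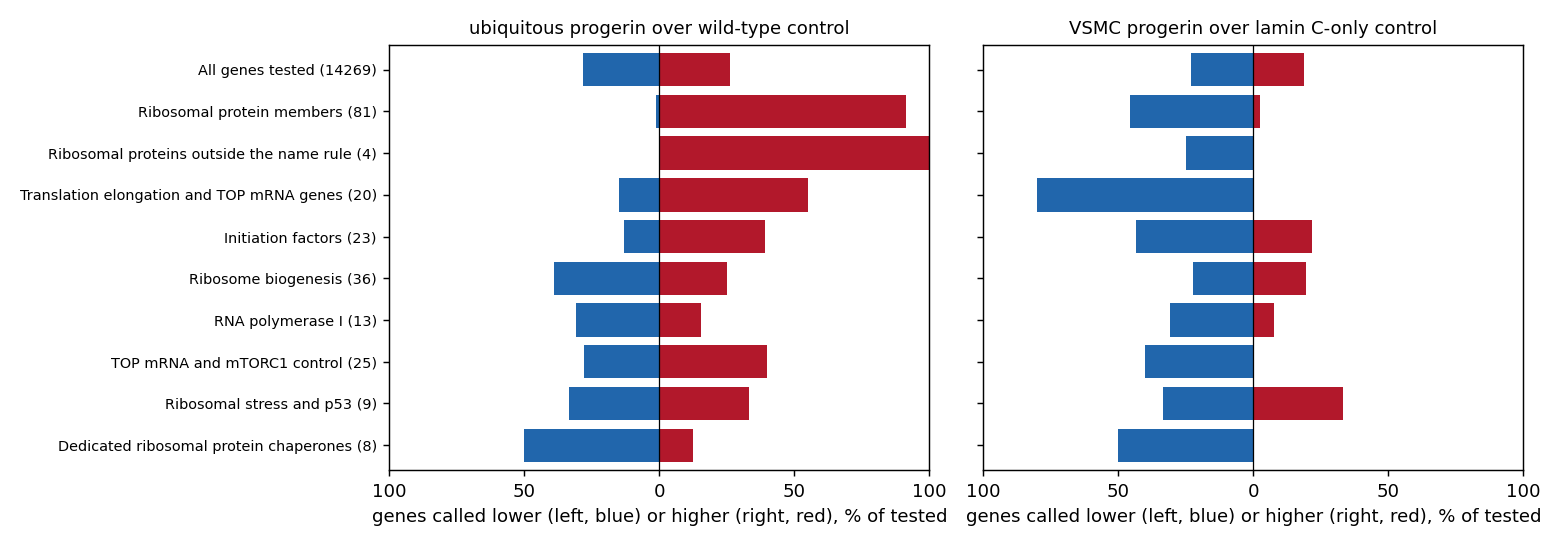
Share of the tested genes of each list called lower (left) or higher (right) in ubiquitous progerin over wild-type control and in VSMC progerin over lamin C-only control, with all genes tested at the top; the number tested is in brackets. The ribosomal protein genes are 74 of 81 higher on the left panel and 37 of 81 lower on the right.

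Markers of other cells differed in both progerin groups, not always in the same direction. Their counts stand beside 26.3% higher and 28.3% lower of all genes tested in ubiquitous progerin, and 19.0% and 23.0% in VSMC progerin. All 11 macrophage markers were higher in each progerin group. Their sums were 1175 to 1814 CPM in ubiquitous progerin against 94.8 to 176 in wild-type control. In VSMC progerin the sums were 861 to 1018 CPM against 88.2 to 284 in lamin C-only control. The 6 vascular smooth muscle markers summed to 934 to 980 CPM in ubiquitous progerin against 491 to 828.7 in wild-type control, and to 316 to 381 in VSMC progerin against 397 to 559 in lamin C-only control. Neither pair of groups overlapped, but the higher sum in ubiquitous progerin rested on Tagln. Within that list 1 of 6 genes was higher in ubiquitous progerin, Tagln (SM22α, at 774 CPM on average against 258 in wild-type control), and 3 were lower. Those were Acta2 (92.6 against 213 CPM), Smtn (60.9 against 95.5) and Myh11 (5.89 against 14.7). In VSMC progerin 0 were higher and 3 lower. Endothelial markers had 5 of 8 lower and 1 higher in ubiquitous progerin (sums of 19034 to 20085 CPM, against 21511 to 23478 in wild-type control), and 3 lower and 4 higher in VSMC progerin (20706 to 21448 CPM, against 20814 to 22826 in lamin C-only control). Fibroblast markers summed to 1210 to 1421 CPM in VSMC progerin against 370 to 617 in lamin C-only control, with 4 of 6 higher. Most CPM were added by Pi16 (697 against 230 CPM on average) and Col1a1 (414 against 17.5), while Pdgfra and Dcn were not called. In ubiquitous progerin the fibroblast sum was 342 to 391 CPM against 414 to 450 in wild-type control. There 0 of 6 were higher and 1, Pi16, was lower. Erythroid markers stood at 8555 CPM in VSMC progerin pool 3, against 465 and 571 in the other pools of that group. The part of these cell types in the results was not tested.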

How the data were processed

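The authors deposited expected counts per gene (RSEM), and log2 values from limma voom for 13034 genes, used only as an alternative. The submitters' processing notes list STAR 2.7.10b and RSEM 1.2.28 on GRCm38, with trimming by cutadapt 4.1 and Trim Galore 0.6.10, and limma. Annotation, strand setting and filters: not given in the sources used here. RSEM divides reads shared with near-identical copies, and 60 of the 83 genes have a named pseudogene in GENCODE M21, the source of positions and lengths. Counts were rounded, filtered with filterByExpr (minimum count 10, minimum total 15, share 0.7), scaled by TMM and tested with edgeR 4.0.16 (R 4.3.3), quasi-likelihood, robust, in 1 fit of all 14 libraries, adjusted by Benjamini-Hochberg, called under 0.05. The steps were tested on simulated data. Alternatives used limma 3.58.1 and DESeq2 1.42.0.

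Genes named were the 3 highest and 3 lowest of each subunit per comparison, paralogs with their partners, stalk and 5S proteins and a few with known roles, and the 2 called genes with the smallest p per pathway list. Some genes that this rule took are not reported here. Rps20, Tagln, Acta2, Smtn, Myh11, Pi16, Col1a1, Pdgfra and Dcn were chosen after their values were seen. The genes and lists were chosen with earlier results of these data known. P-values measure the spread between pools. Gene-level counts cannot tell progerin from the other Lmna products, so the alleles were not checked. Promoter sequences are from RefSeq (GRCm38.p6).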

Additional observations from a re-analysis of the deposited data

Results flagged for a closer look

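The difference between the progerin effects (ubiquitous minus VSMC) passed edgeR's quasi-likelihood test for 76 genes above 0 and 1 below. Of 29 genes examined singly, 25 passed. On the log2 scale the differences were 1.08 for Rps3, 0.86 for Rps4x, 0.80 for Rps14, 0.78 for Rpl12, 0.75 for Rpl13, 0.73 for Rps19, 0.73 for Rps27, 0.72 for Rplp0 and 0.72 for Rpl3. They were 0.66 for Rps6, 0.65 for Rpl13a, 0.64 for Rpsa, 0.63 for Rpl4, 0.62 for Rplp2, 0.61 for Rpl22l1, 0.56 for Rpl7 and 0.50 for Rpl11. The smaller ones were 0.48 for Rpl10a, 0.43 for Rplp1, 0.39 for Rpl5, 0.37 for Rps3a1, 0.36 for Rpl22, 0.31 for Rpl10 and 0.23 for Rpl39, and the call of Rpl39 was lost when some single pools were left out. Rpl7l1 was the one below 0, at -0.36.

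Wild-type control pool 1 lay far from the other 3 wild-type pools in the number of genes with counts (14331) and in Rps3 (1057 CPM, the lowest). These were 2 of 70 groups of values examined, and the 95% limit used marks about 1 in 20 by chance.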

How the results depend on the processing

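Leaving out each library in turn, ubiquitous progerin kept 70 to 75 genes higher and 1 lower, with a median log2 fold change of 0.36 to 0.41. VSMC progerin had 18 to 47 lower, 1 to 3 higher and a median of -0.202 to -0.0689. Lamin C-only control had 0 to 1 lower. The difference had 73 to 77 higher, 1 to 2 lower and a median of 0.43 to 0.57. With library totals in place of TMM, VSMC progerin had 65 lower, 1 higher and a median of -0.23 (all genes -0.11), and the difference a median of 0.60. With only the groups compared, VSMC progerin had 21 lower. Leaving mitochondrially encoded genes out of the total gave shares of 6.92% in ubiquitous progerin, 5.12% in wild-type control and 4.57% in VSMC progerin. Restricted to genes with whole counts, an alternative chosen after seeing the data, 48 were higher in ubiquitous progerin and 50 in the difference, since only 54 genes were counted. The cause of the other shifts was not tested.

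Pool numbers did not pair the libraries (same-number r of -0.055 to 0.023); with the replicate block, 74 were higher in ubiquitous progerin, 33 lower in VSMC progerin and 76 higher in the difference.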

Other observations

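Chaperones dedicated to single ribosomal proteins had 1 of 8 tested genes higher (12.5%, against 26.3% of all genes) and 4 lower (50%, against 28.3%) in ubiquitous progerin. In VSMC progerin 0 were higher and 4 lower (50%, against 23.0%). Sqstm1, an autophagy receptor placed in that list, rose by 0.45 ± 0.05 on the log2 scale in ubiquitous progerin and fell by 0.30 ± 0.05 in VSMC progerin. Heatr3, which carries Rpl5 and Rpl11 into the nucleus, fell by 0.76 ± 0.13 in ubiquitous progerin, and Tsr2, the carrier of Rps26, fell by 0.47 ± 0.10 in VSMC progerin. Among 9 genes of ribosomal stress and p53, 3 were higher and 3 lower in each comparison, or 33.3% in each direction, against 26.3% higher and 28.3% lower of all genes in ubiquitous progerin and 19.0% and 23.0% in VSMC progerin. Trp53 fell by 0.52 ± 0.07 in ubiquitous progerin and by 0.26 ± 0.07 in VSMC progerin, and Zmat3, a p53 target, rose by 0.75 ± 0.15 in VSMC progerin.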
